A study of Mus musculus with 6 samples.

Results

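The angiopoietin and Tie receptor genes comprised 5 of the 24421 gene symbols in the data, chosen by symbol: the ligand genes Angpt1 and Angpt2, the receptor genes Tek and Tie1, and the receptor phosphatase gene Ptprb. They were compared between endothelial cells sorted from glioma and endothelial cells sorted from normal brain, both from C57BL/6 mice. The glioma group held 3 libraries from tumors taken 3 weeks after GL26l glioma cells were placed in the brain of congenic animals, and the normal group held 3 libraries from brain without tumor. The labels name no altered gene in either group. The tumors came from transplanted cells of a single named line, and the number of animals behind each library is not given in the sources used here. The series asks how vessels of high-grade glioma differ in gene expression from vessels of normal brain.

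Angiopoietins are secreted ligands of Tie2, the receptor tyrosine kinase that Tek encodes. Angiopoietin-1 comes mainly from cells around the vessel, activates Tie2 and keeps endothelium quiescent and tightly joined, while angiopoietin-2 is released by endothelial cells themselves, often opposes angiopoietin-1, and is known for its induction in sprouting and tumor vessels. Tie1 is a related receptor that binds no angiopoietin strongly and modulates Tie2. The product of Ptprb, vascular endothelial protein tyrosine phosphatase (VE-PTP), removes phosphate from Tie2 and from junction proteins.

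Per GENCODE M21 on GRCm38 (mm10), Angpt1 lies on chromosome 15 from 42424723 to 42676977 on the minus strand, and Angpt2 on chromosome 8 from 18690263 to 18741562 on the minus strand. Both receptor genes are on chromosome 4, Tek from 94739289 to 94874976 on the plus strand and Tie1 from 118471191 to 118490061 on the minus strand. Ptprb is on chromosome 10 from 116275523 to 116389535 on the plus strand. The whole of Angpt2 lies within Mcph1, a gene of DNA repair and chromosome condensation that is read from the opposite strand, and 0 of the 11 annotated Angpt2 exons overlap an Mcph1 exon.

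Promoter sequences were found for 2 of the 5 genes, Tek and Tie1, in the RefSeq table of build GRCm38.p6. They are shown because ETS factors, whose own levels are given further on, are known to act on the promoters of both receptor genes. Each runs 5′ to 3′ on the gene's strand, from 250 bases before the gene's start in RefSeq to 50 bases after it. That start is 94739289 for Tek and 118489849 for Tie1, and the Tie1 start differs from the end of the gene in GENCODE given above. Capitals mark every GGAA or its reverse complement TTCC, the core letters of ETS sites.
Tek, chr4:94739039-94739338, plus strand: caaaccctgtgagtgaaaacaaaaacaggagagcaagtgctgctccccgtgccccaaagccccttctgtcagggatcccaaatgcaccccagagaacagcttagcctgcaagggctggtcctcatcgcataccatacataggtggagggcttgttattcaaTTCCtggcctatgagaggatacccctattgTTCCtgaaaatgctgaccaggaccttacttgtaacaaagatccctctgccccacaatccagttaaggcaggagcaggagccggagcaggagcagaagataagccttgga
Tie1, chr4:118489800-118490099, minus strand: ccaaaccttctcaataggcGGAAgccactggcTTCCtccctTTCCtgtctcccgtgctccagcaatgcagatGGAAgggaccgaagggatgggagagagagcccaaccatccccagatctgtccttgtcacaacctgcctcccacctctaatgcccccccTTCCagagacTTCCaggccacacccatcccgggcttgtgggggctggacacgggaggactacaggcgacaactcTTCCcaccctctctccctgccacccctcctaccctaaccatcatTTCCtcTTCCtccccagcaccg
The Tek window holds 2 such matches and the Tie1 window holds 9, where the median over 32851 promoters of this length was 3. At least 1 match stands in 96.0% of those promoters, and 1.59% hold as many as Tie1 or more. GATAA, the core of GATA sites, was searched on both strands too; it has 1 match in the Tek window and 0 in the Tie1 window, and 25.4% of the promoters hold it. GTAAACA, a core of Foxo sites, has 0 matches in both windows and stands in 3.65% of promoters. A match is a match of letters only.

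Libraries were made with a QuantSeq kit, which reads the 3′ end of transcripts, so a level needs no division by gene length. Each file gives 1 log2(x + 1) value per symbol, and the values read as quantile-normalized across the 6 libraries with zeros kept, so sequencing depth is unknown. A gene without reads is listed at 0. Symbols above 0 numbered 7446 to 13108 per library, and the lowest value above 0 was 0.42, 3.82 and 5.22 in glioma replicates 1, 2 and 3 and 7.43, 2.84 and 0.22 in normal replicates 1, 2 and 3. Normal replicate 1 stood apart: 142 genes that were above 9 in each of the other libraries were listed at 0 there, against at most 26 in any other library. Across the 5880 genes above 0 in all 6 libraries, its Pearson's r was 0.58 and 0.60 with normal replicates 2 and 3, while those 2 reached 0.97 with each other. Glioma replicate 1 was as far from its own group by this measure, at 0.67 with glioma replicate 2 and 0.54 with glioma replicate 3. The sample files carry date-like numbers, which pair replicates 2 and 3 within each group and never join the groups, so that a batch cannot be told apart from the group. The members' results are given with and without normal replicate 1 where that library moves them.

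All 18 genes of an endothelial identity list were above 0 in all 6 libraries, so the labelled cell type carried its markers. The highest were Egfl7, a secreted endothelial factor, at 16.15 ± 0.81 in glioma and 17.52 ± 0.18 in normal libraries (SD, n = 3 each), and the adhesion molecule gene Pecam1 at 15.42 ± 0.55 and 15.89 ± 0.55. Summed over the list after back-transformation, the level was 233802 to 417213 in glioma libraries and 444250 to 575326 in normal libraries, so the sums did not overlap. The sum rests on its most abundant genes: gene by gene, 17 of the 18 overlapped between the groups, 1 (Egfl7) lay wholly below, 6 had a positive difference and the median difference was -0.26. In sorted but bulk samples, fewer cells of a type and less RNA per cell cannot be told apart.

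None of the 5 genes passed the test. Of 11862 genes tested with limma, 0 (0%) reached a Benjamini-Hochberg adjusted p of 0.05, and 509 (4.29%) had an unadjusted p under 0.05, among them 0 of the 5 members. Glioma and normal libraries overlapped for all 5 members. Over all genes tested, 6.91% had every glioma value above every normal value and 6.37% had every glioma value below. Of the members, Ptprb had the highest level in both groups and Tek the second highest on average, and Angpt1 was the lowest in every library. Tie1 and Angpt2 changed places between libraries.

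**Figure D1:**
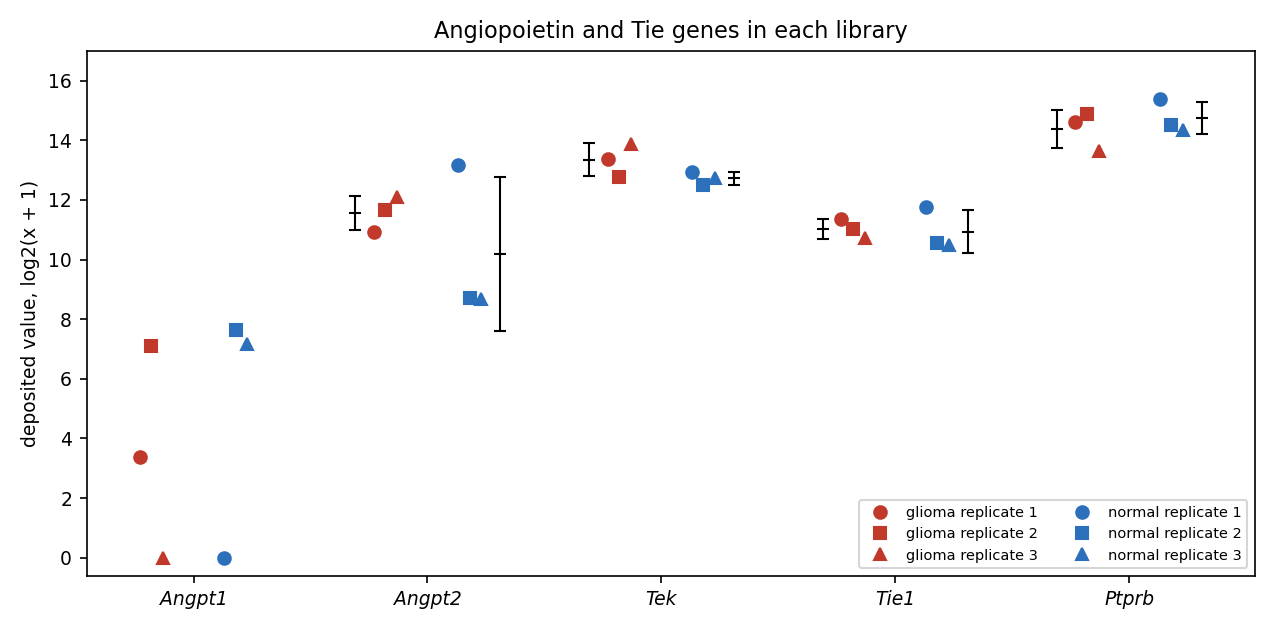
Deposited log2(x + 1) value of each gene in each library, glioma in red and normal in blue, with the marker shape giving the replicate number; bars are the mean and SD of 3 libraries and are left out for Angpt1, which is listed at 0 in a library of each group. Normal replicate 1 is the highest point for Angpt2 (13.15), Tie1 (11.77) and Ptprb (15.37).

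Angpt2, the ligand that endothelial cells store and release, had values of 10.94, 11.67 and 12.08 in glioma replicates 1, 2 and 3, against 13.15, 8.70 and 8.67 in normal replicates 1, 2 and 3. All 3 glioma libraries lay between normal replicate 1 above them and the nearly equal pair of normal replicates 2 and 3 below them. As a rank among all symbols, Angpt2 was 1592nd, 927th and 662nd in the glioma libraries, against 257th in normal replicate 1 and 5144th and 5191st in normal replicates 2 and 3. The group means were 11.56 ± 0.58 in glioma and 10.18 ± 2.58 in normal libraries (SD, n = 3 each). The difference was 1.39 (SE 1.13, 95% interval -1.17 to 3.95, limma adjusted p = 0.875). The SD of the normal group exceeded this difference.

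The size of the Angpt2 difference depended on which normal libraries were kept. Without normal replicate 1 it was 2.88 (SE 0.49, 95% interval 1.70 to 4.06), or 7.35-fold, with all glioma libraries above both normal libraries; its limma adjusted p was 0.391 and its unadjusted p 0.000833, in a fit where 10.2% of all genes had an unadjusted p under 0.05. That fit counts normal replicates 2 and 3 as independent, though they correlated at 0.97 and were only 0.03 apart for Angpt2. Without normal replicate 2 or 3 the difference was 0.65 or 0.64. With the pair averaged into 1 sample and normal replicate 1 kept, chosen after seeing the data, it was 0.64 (SE 1.07). Within the normal group, Angpt2 was 4.47 higher on the log2 scale, or 22.1-fold, in normal replicate 1 than in the mean of the other 2 libraries. Of the 5880 genes above 0 in every library, 1.90% stood as far above in normal replicate 1. With a single library on that side, this contrast has no replicate check.

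Other transcripts also stood high in normal replicate 1. The summed level of a list of 15 pericyte and smooth muscle markers was 10470, 15110 and 19135 in glioma replicates 1, 2 and 3, against 22149 in normal replicate 1 and 7528 and 9305 in normal replicates 2 and 3. The sum had the same order as Angpt2, with normal replicate 1 highest and the normal pair lowest, and it rests on its most abundant genes. Gene by gene, 6 of the 15 had a positive difference, and the median difference was -0.31. Of the 15, 0 lay wholly above and 2 wholly below, beside 6.91% and 6.37% of all genes tested. Neither Rgs5 nor Abcc9, given below, had the order of the sum. Of the 15 markers, 12, 14 and 12 were above 0 in the glioma libraries, against 11, 14 and 15 in the normal libraries. Kcnj8, Notch3, Ndufa4l2 and Cnn1 were at 0 in normal replicate 1, whose lowest value above 0 was 7.43. Pdgfrb (11.15), Cspg4 (8.72), Tagln (9.66), Higd1b (10.02) and Anpep (8.45) were highest in that library. Rgs5, a regulator of G protein signalling and the highest of these markers, was at 12.43, 12.21 and 10.03 in glioma and 13.47, 9.56 and 11.04 in normal libraries. Abcc9, a subunit of a pericyte potassium channel, was at 10.58, 10.94 and 13.14 in glioma and 10.76, 9.04 and 9.78 in normal libraries. Mcph1, on the strand opposite Angpt2, was at 6.48, 0 and 6.52 in glioma and 8.38, 5.66 and 5.85 in normal libraries, and whether counting used strand is not given in the sources used here. The part of these transcripts in the Angpt2 values was not tested.

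Angpt1, the activating ligand, was at the edge of detection. It was at 3.37, 7.11 and 0 in glioma replicates 1, 2 and 3, against 0, 7.64 and 7.16 in normal replicates 1, 2 and 3. Each group thus held a library in which the gene is listed at 0, and the groups overlapped. The 0 in normal replicate 1 stands in a library whose lowest value above 0 was 7.43, which lies between the values of Angpt1 in the other 2 normal libraries. Only 7446 symbols were above 0 in that library, and Angpt1 ranked 6991st and 7731st in normal replicates 2 and 3. The 0 in glioma replicate 3 stands beside a lowest value of 5.22. Angpt1 ranked 11064th in glioma replicate 1 and 7797th in glioma replicate 2.

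The fitted difference of Angpt1 was -1.44 with an SE of 3.06 and a 95% interval of -8.41 to 5.53 (limma adjusted p = 0.934). A difference in either direction was not detectable with these libraries. With every value raised to a shared floor of 7.43, the difference was -0.07. Without glioma replicate 3 it was 0.31, and without normal replicate 1 it was -3.91 (SE 2.47, limma adjusted p = 0.601), with all glioma libraries below both remaining normal libraries. Angpt1 is also made by platelets and their precursors. Of 9 such markers, 6, 1 and 1 were above 0 in the glioma libraries and 4, 5 and 5 in the normal libraries. Their summed level was 47 to 1311 in glioma and 412 to 2509 in normal libraries. The 2 highest were Itga2b, a platelet integrin chain, at 8.22, 7.44 and 0 in glioma and 9.22, 7.84 and 7.07 in normal libraries, and the platelet receptor gene Treml1 at 8.83, 0 and 0 in glioma and 0, 8.30 and 7.41 in normal libraries. The share of such transcripts in Angpt1 was not tested.

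Tek, which encodes the receptor Tie2, was at 13.37, 12.77 and 13.89 in glioma replicates 1, 2 and 3, against 12.93, 12.50 and 12.73 in normal replicates 1, 2 and 3. Of the glioma libraries, replicates 1 and 3 lay above all normal libraries, and replicate 2 lay within the normal range. The means were 13.34 ± 0.56 in glioma and 12.72 ± 0.21 in normal libraries (SD, n = 3 each), a difference of 0.62 (SE 0.46, 95% interval -0.42 to 1.67, limma adjusted p = 0.875) or 1.54-fold. The interval reaches from 0.746-fold to 3.17-fold. The difference stayed above 0 when each library was left out, from 0.35 without glioma replicate 3 to 0.91 without glioma replicate 2, and did not pass the test in any of these fits. Tek had the narrowest normal range of the 5 genes, 0.43 on the log2 scale.

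Some macrophages also express Tek. Of 16 microglia and macrophage markers, 12, 1 and 13 were above 0 in the glioma libraries and 5, 5 and 8 in the normal libraries, with summed levels of 459, 109 and 14337 in glioma and 2443, 196 and 127 in normal libraries. Glioma replicate 3, the library with the highest Tek value, was also the highest in this list. The next library was not the same: normal replicate 1 came second in the list and glioma replicate 1 second in Tek. C1qa, a complement chain of microglia, was at 5.25, 6.78 and 11.69 in glioma and 9.79, 3.42 and 0.22 in normal libraries, and the chemokine receptor gene Cx3cr1 was at 5.13, 0 and 9.08 in glioma and 9.65, 6.88 and 6.51 in normal libraries. The part of such transcripts in the Tek values was not tested.

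Tie1, the second receptor, was at 11.36, 11.02 and 10.71 in glioma replicates 1, 2 and 3, against 11.77, 10.55 and 10.50 in normal replicates 1, 2 and 3. Normal replicate 1 was the highest library and the other normal libraries the lowest, so the glioma values fell inside the normal range. The means were 11.03 ± 0.33 in glioma and 10.94 ± 0.72 in normal libraries (SD, n = 3 each), a difference of 0.09 (SE 0.53, 95% interval -1.12 to 1.30, limma adjusted p = 0.981). The difference was below 0 without glioma replicate 1 (-0.08), normal replicate 2 (-0.11) or normal replicate 3 (-0.13), and 0.51 without normal replicate 1.

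Ptprb was the most abundant of the 5, at 14.60, 14.87 and 13.65 in glioma replicates 1, 2 and 3, against 15.37, 14.53 and 14.34 in normal replicates 1, 2 and 3. By rank it was 59th, 44th and 152nd of all symbols in the glioma libraries and 27th, 64th and 76th in the normal libraries. The lowest value belonged to glioma replicate 3 and the highest to normal replicate 1. The means were 14.37 ± 0.64 in glioma and 14.75 ± 0.55 in normal libraries (SD, n = 3 each), a difference of -0.38 (SE 0.56, 95% interval -1.65 to 0.90, limma adjusted p = 0.898). It was -0.02 without glioma replicate 3 and -0.06 without normal replicate 1.

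**Figure D2:**
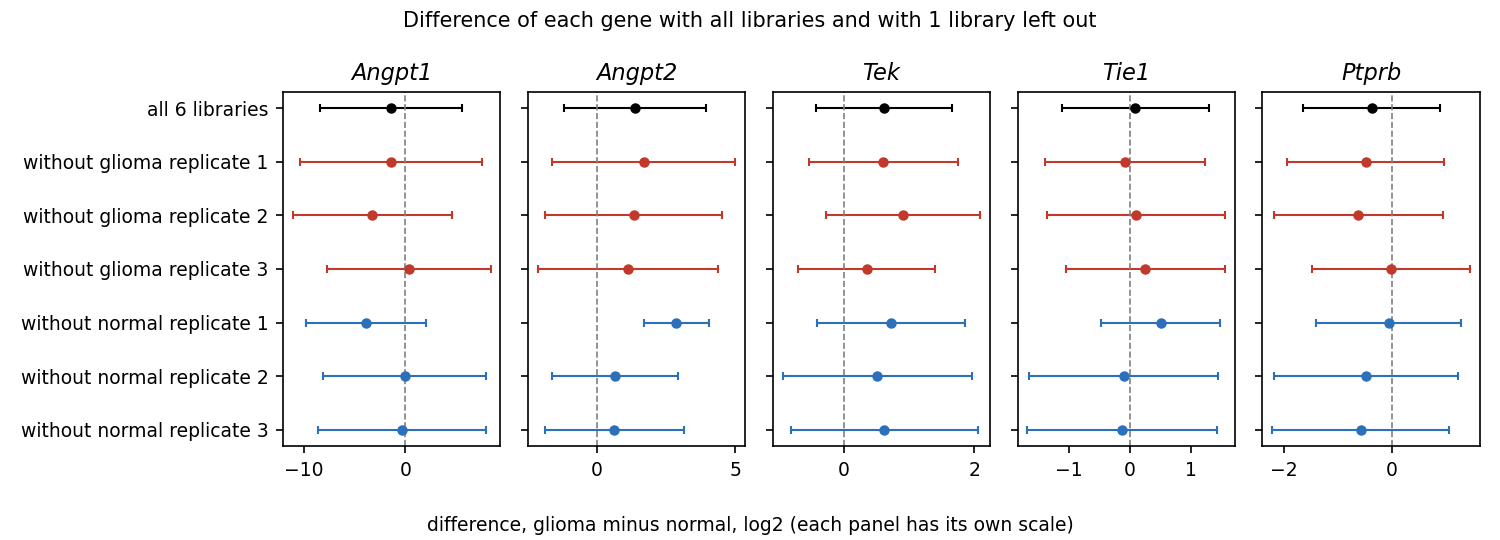
Difference of each gene, glioma minus normal, on the log2 scale, with all 6 libraries (black) and with each library left out (red for a glioma library, blue for a normal library); bars are 95% intervals from limma, and each panel has its own scale. The interval of Angpt2 without normal replicate 1, from 1.70 to 4.06, is the only one drawn that does not reach 0, and its adjusted p of 0.391 did not pass the threshold.

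Leaving out normal replicate 1 changed how the members were placed. Among the other 5 libraries, 3 members (Angpt2, Tek and Tie1) had glioma libraries wholly above the normal libraries, and Angpt1 had them wholly below. In the same 5 libraries 14.7% of all genes tested lay wholly above and 20.7% wholly below. The 2 normal libraries left are the pair that resembled each other most, and none of the 5 genes passed the test there. For Tek, Tie1 and Angpt1 the gap was small. The lowest glioma value of Tek was 12.77 beside a highest value of 12.73 in the 2 normal libraries, and for Tie1 these were 10.71 and 10.55. The highest glioma value of Angpt1 was 7.11 beside a lowest value of 7.16 in the 2 normal libraries.

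A single scale factor of a library would cancel in the difference of 2 of its genes, so such differences were compared as well. Quantile normalization is not a single factor, and a gene listed at 0 is not scaled, so this cancelling is not assured here. Angpt2 relative to Tek was -2.44, -1.10 and -1.80 in glioma replicates 1, 2 and 3, against 0.22, -3.80 and -4.05 in normal replicates 1, 2 and 3. Angpt2 exceeded its receptor gene in normal replicate 1, and in that library alone. The means differed by 0.77 (exact two-sided permutation test, n = 3 each, p = 0.6), where 0.1 is the smallest p this design allows. This value rests on single libraries. It was 2.15 without normal replicate 1 (exact permutation p = 0.2, the smallest p possible with that library left out). It was 0.14 and 0.01 without normal replicates 2 and 3, and 0.43 without glioma replicate 2. Tie1 relative to Tek was -2.01, -1.75 and -3.18 in glioma and -1.16, -1.96 and -2.23 in normal libraries, a difference of means of -0.53 (exact permutation p = 0.5). It was -0.22 without normal replicate 1, -0.10 without glioma replicate 3 and -0.81 without glioma replicate 2.

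Ptprb relative to Tek was 1.22, 2.10 and -0.24 in glioma and 2.44, 2.02 and 1.62 in normal libraries. Glioma replicate 3 was the only library in which the phosphatase gene stood below the receptor gene. The difference of means was -0.997 (exact permutation p = 0.3), and it was -0.37 without glioma replicate 3 and -1.53 without glioma replicate 2. Angpt2 relative to Angpt1 was 7.57 and 4.56 in glioma replicates 1 and 2, against 1.07 and 1.51 in normal replicates 2 and 3. In glioma replicate 3 and normal replicate 1, Angpt1 is listed at 0 and Angpt2 stands at 12.08 and 13.15. The permutation test over all 6 libraries, with those listed values as they stand, gave a difference of means of 2.83 (exact p = 0.6). It was 1.46 with the shared floor, and 6.78, 0.74 and 0.96 without normal replicates 1, 2 and 3. Without glioma replicates 2 and 3 it was 4.58 and 0.82.

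**Figure D3:**
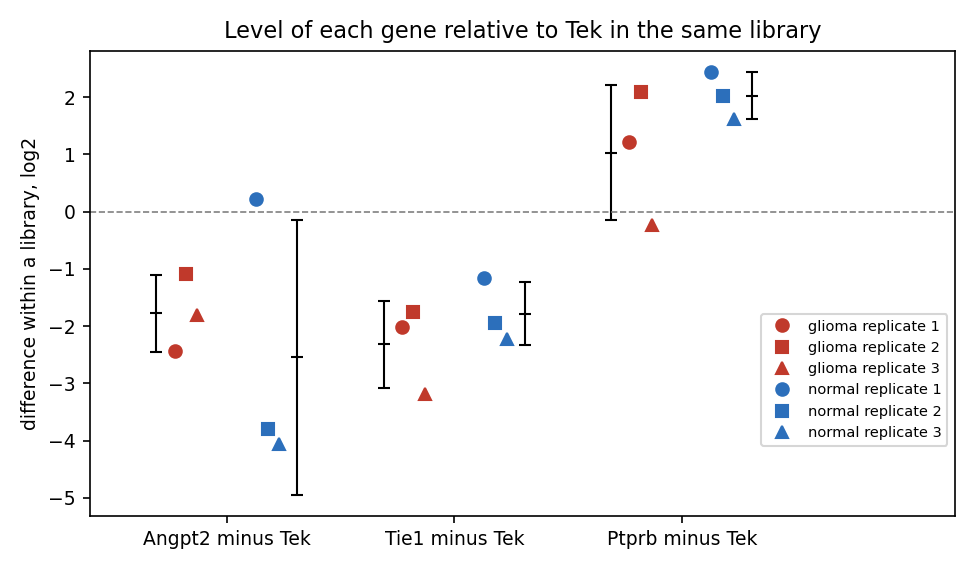
Level of Angpt2, Tie1 and Ptprb relative to Tek in the same library, as a log2 difference, glioma in red and normal in blue, with the marker shape giving the replicate number; bars are the mean and SD of 3 libraries. Normal replicate 1 is highest in each column, and for Angpt2 it lies at 0.22 while normal replicates 2 and 3 lie at -3.80 and -4.05.

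Further genes of the pathway were taken by list. Their members were counted as higher or lower only beside the same shares over all genes (6.91% wholly above and 6.37% wholly below, or 14.7% and 20.7% without normal replicate 1), and none of them passed the limma test with adjustment over the whole table or had an unadjusted p under 0.05. The median difference over all genes tested was 0.05. Of 7 angiopoietin-related ligand genes, 2 were tested and both were overlapping. Angptl2, a secreted inflammatory ligand, was at 0.42, 7.17 and 6.68 in glioma and 8.02, 6.81 and 6.96 in normal libraries. Angptl4, an inhibitor of lipoprotein lipase, was at 2.22, 8.15 and 9.02 in glioma and 8.37, 7.46 and 7.66 in normal libraries. Glioma replicate 1 was low for both, and glioma replicate 2 lay within the normal range for both. Glioma replicate 3 lay just below the normal range for Angptl2 and above it for Angptl4. Angpt4, the third angiopoietin gene of the mouse, was listed at 0 in all 6 libraries.

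Modulators of the ligands and receptors numbered 13, of which 10 were tested, with a median difference of 0.30. The glioma libraries lay wholly above for 1 of them and wholly below for 2. Itga5, the integrin chain that pairs with Itgb1 as a fibronectin receptor, was at 5.60, 7.27 and 6.69 in glioma and 0, 4.71 and 3.37 in normal libraries (limma adjusted p = 0.875). Ptpn11, which encodes the phosphatase SHP2, was at 11.34, 9.86 and 10.58 in glioma and 11.48, 11.67 and 11.68 in normal libraries, a difference of -1.02 (SE 0.51, limma adjusted p = 0.875). Egfl7, given above, differed by -1.36 (SE 0.77). Without normal replicate 1 the counts were 4 above and 3 below of 10, beside 14.7% and 20.7% of all genes.

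Adaptors of Tie2 and the PI3K-Akt cascade numbered 25, of which 24 were tested, with 12 positive differences and a median of -0.04. Groups were apart for 5, with 2 above and 3 below. Akt1, the kinase through which Tie2 supports endothelial survival, was at 10.86, 11.85 and 11.73 in glioma and 8.91, 10.73 and 10.54 in normal libraries, a difference of 1.42 (SE 0.63, limma adjusted p = 0.875). Rasa1, a Ras GTPase-activating protein, was at 10.07 ± 0.36 in glioma and 9.16 ± 0.34 in normal libraries (SD, n = 3 each). The adaptor gene Grb7 was at 3.12, 8.18 and 7.52 in glioma and 10.30, 8.97 and 8.91 in normal libraries. Tnip2, an inhibitor of NF-kappaB signalling that binds Tie2, was at 5.36 ± 1.80 in glioma and 8.32 ± 1.04 in normal libraries, and Pik3cb, a catalytic subunit of PI3K, at 7.90 ± 0.85 and 9.22 ± 0.19 (SD, n = 3 each). Dok2, a docking protein of Tie2, was at 1.81, 0 and 6.51 in glioma and at 0 in all normal libraries, and was not tested. Without normal replicate 1 the counts of the list were 3 above and 6 below of 24, beside the same 14.7% and 20.7%.

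Foxo1, the transcription factor that Akt holds inactive and that activates Angpt2, was at 9.11, 11.13 and 11.31 in glioma and 8.75, 10.75 and 10.90 in normal libraries. The values overlapped and the first replicate was the lowest in both groups. Of 17 Foxo factors and Foxo1 targets, 15 were tested, with 7 positive differences and a median of -0.10, and 1 lay wholly above. That gene was Cited2, a transcriptional co-regulator, at 9.25, 7.97 and 8.89 in glioma and 0, 5.84 and 6.92 in normal libraries. Apln, the gene of the tip cell peptide apelin, was at 11.69, 12.93 and 12.89 in glioma and 13.82, 6.21 and 6.52 in normal libraries, the same order as Angpt2 with normal replicate 1 on top and the other normal libraries lowest. Without normal replicate 1 the counts were 2 above and 2 below of 15, beside 14.7% and 20.7% of all genes.

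Of 16 transcription factors known to act on Angpt2 or Tek, 14 were tested, with 11 positive differences and a median of 0.21. The groups overlapped for all 14. Elf1, an ETS factor, was at 9.83, 10.13 and 10.78 in glioma and 10.54, 11.95 and 12.13 in normal libraries, a difference of -1.29 (SE 0.58, limma adjusted p = 0.875). Elk3, another ETS factor, was at 12.89, 12.60 and 12.68 in glioma and 13.01, 11.49 and 11.78 in normal libraries, and differed by 0.63 (SE 0.51). Erg, an ETS factor of endothelial identity, was at 13.71, 14.51 and 13.76 in glioma and 15.40, 12.57 and 13.57 in normal libraries. The ETS factors were mixed in normal replicate 1. Elk3, Erg and Fli1 (13.09) were highest in that library, as Tie1 and Angpt2 were. Ets1 (11.89) and Elf2 (9.14) were lowest in it, and Elf1 lay between. A link of these factors to the members was not tested. Without normal replicate 1 the counts were 4 above and 3 below of 14, beside 14.7% and 20.7%.

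**Figure D4:**
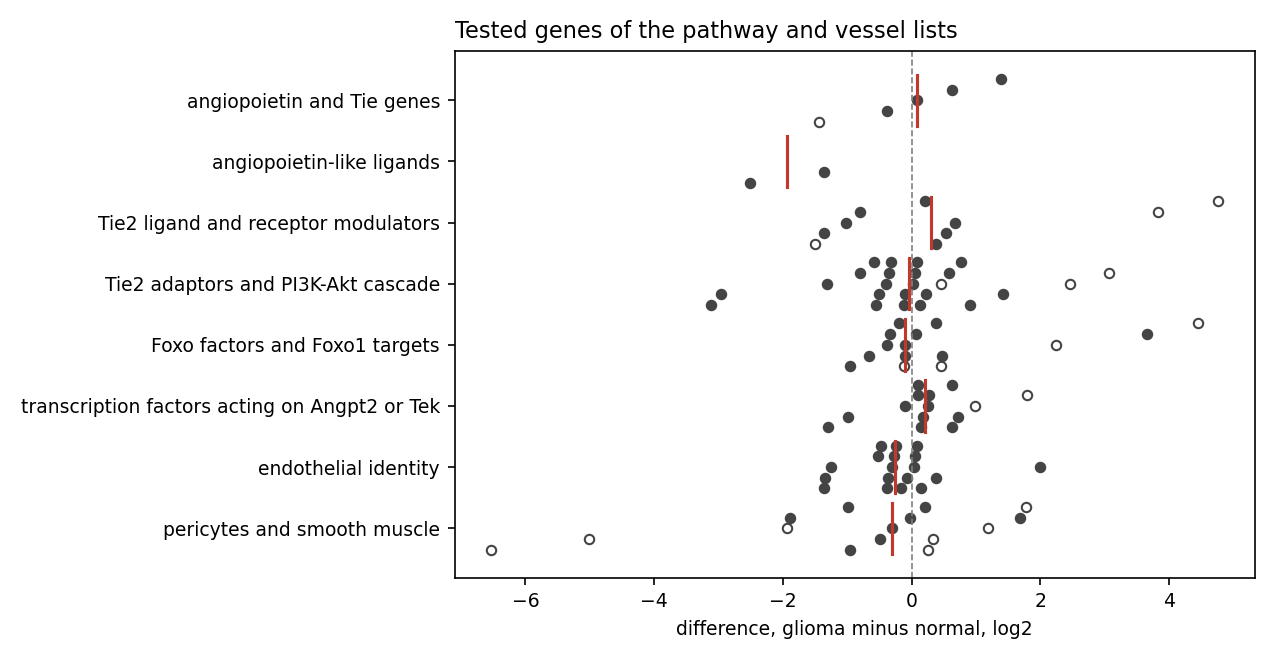
Difference, glioma minus normal, on the log2 scale for the tested genes of the 5 members, the pathway lists and 2 vessel marker lists; each point is a gene, open where the gene is listed at 0 in at least 1 library, and the red line is the median of the list. Medians lay between -0.31 and 0.30 except for the 2 angiopoietin-related ligands at -1.94, and the wide differences at the edges are mostly open points.

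Genes whose profile over the 6 libraries was most like that of a member were found by the root mean square difference after each gene was set to a mean of 0, on the log2 scale. Closest to Angpt2 among 5879 genes were Nubp1 at 0.33, Zfp13 at 0.35 and Hsd17b4 at 0.35. Nubp1 too was highest in normal replicate 1 and lowest in the other normal libraries, at 7.84, 8.44 and 8.30 in glioma and 9.67, 5.82 and 5.83 in normal libraries. Closest to Tek were Ubb at 0.13, Hhex at 0.13 and Cox4i1 at 0.13. Hhex, a homeobox factor that was also on the list of factors acting on these genes, was at 10.21, 9.56 and 10.76 in glioma and 9.80, 9.32 and 9.22 in normal libraries. Eif2ak1, Rcn2 and Ywhaz were closest to Tie1, at 0.14, 0.14 and 0.15. Lman2, Arhgdia and Ndufb8 were closest to Ptprb, at 0.12, 0.12 and 0.14. For Angpt1, compared with 11861 genes, they were Tceanc at 0.21, Tex30 at 0.21 and Magix at 0.26, each also listed at 0 in glioma replicate 3 and normal replicate 1. With 6 libraries and so many genes compared, close profiles are a description of these libraries.

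Markers of other cell types were uneven as well, and their part in the members' values was not tested. Fibroblast markers were above 0 for 9, 4 and 0 of 10 genes in glioma and 3, 5 and 6 in normal libraries, with Col1a2 at 10.93, 8.16 and 0 in glioma and 7.43, 6.27 and 5.57 in normal libraries, and Col3a1 at 9.76, 7.65 and 0 in glioma and 0, 3.42 and 2.12 in normal libraries. Neuronal markers summed to 58 to 9215 in glioma and 1059 to 1533 in normal libraries, and Map2 and Stmn2 had the highest mean log2 values. Astrocyte markers summed to 3574 to 15109 in glioma and 7593 to 12032 in normal libraries. Their highest gene was Slc1a2, a glutamate transporter, at 12.30 ± 1.77 in glioma and 12.47 ± 0.68 in normal libraries (SD, n = 3 each), followed by the connexin gene Gja1. Of 10 proliferation and glioma cell genes, 9 were tested. Of these, 4 lay wholly above and 0 wholly below, beside 6.91% and 6.37% of all genes tested. An unadjusted p under 0.05 in limma was found for 5, beside 4.29% of all genes tested, while none passed with adjustment. Their highest genes were those of the filaments vimentin, Vim, at 13.32 ± 1.25 in glioma and 11.49 ± 0.94 in normal libraries, and nestin, Nes, at 10.06 ± 0.46 and 10.43 ± 0.28 (SD, n = 3 each), and both overlapped. The proliferation gene Top2a was at 11.44, 8.52 and 9.42 in glioma and 10.03, 0 and 2.00 in normal libraries. In normal replicate 1, Top2a, Mki67 (9.57) and Cdk1 (8.76) lay within the glioma range. Birc5 (9.99) lay below that range and above the other normal libraries. Ccnb2, Bub1b and Sox2 were at 0 in normal replicate 1, whose lowest value above 0 was 7.43, and Vim (10.42) was lowest in it. The summed level of the list, 15601 to 26482 in glioma and 5560 to 5992 in normal libraries, had Vim as its largest part in each library. Top2a, Mki67, Cdk1, Birc5, Ccnb2, Bub1b and Sox2 were picked after their values were seen. The 4 genes that lay wholly above, Ccnb2, Bub1b, Birc5 and Sox2, are all among these. The counts of this list therefore follow from the choice of its genes and are no result beside the shares over all genes.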

How the data were processed

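Values of sorted endothelial cells from 3 glioma and 3 normal brain libraries were used as deposited. The authors' deposited values are log2 values, 1 per symbol. Bowtie2, edgeR and mm10 are named without role, per the submitters' processing notes; which tool counted reads, with or without strand, and how values were normalized is not given in the sources used here. The form log2(x + 1) after quantile normalization was read from the values: the highest value is the same in every library, and back-transformed values lie within 0.02 of whole multiples of 1 divided by 6, as means over 6 libraries do. This removes depth. A linear model from limma 3.58.1, run in R 4.3.3, had group as the only term, a mean trend in the prior and 4 residual degrees of freedom, and took genes that reached 1 after back-transformation in 3 or more libraries. Adjustment followed Benjamini and Hochberg over all 11862 genes, with a threshold of 0.05. Nothing in the labels ties a library to an animal, and the p-values then measure only how far these libraries spread, which may be technical. The fit was tested on simulated data. Without counts, normal replicates 2 and 3 cannot be tested against sampling noise.

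The members and the gene lists were chosen with earlier results of these data known. Named were the 5 members; from each pathway list the 2 genes with the smallest p and those whose groups did not overlap, at most 5; the 2 highest genes of each marker list; and the 3 most similar profiles per member. Foxo1, Erg, Fli1, Ets1, Elf2, Dok2 and Angpt4 were added after their values were seen. So were the pericyte markers named as at 0 or as highest in normal replicate 1. Summed levels are sums of 2 to the power of the value, minus 1. Alternatives were another filter, pseudocount, floor, scaling, prior, a replicate block and libraries left out. The result of 1 marker list is not reported here.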

Additional observations from a re-analysis of the deposited data

How the results depend on the processing

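The differences of Angpt2, Tek and Ptprb kept their direction and stayed short of the threshold in all 15 alternatives tried for each. Leaving out 1 library at a time gave differences of 0.64 to 2.88 for Angpt2, 0.35 to 0.91 for Tek, -0.62 to -0.02 for Ptprb, -0.13 to 0.51 for Tie1 and -3.91 to 0.31 for Angpt1. Averaging normal replicates 2 and 3 into 1 sample, chosen after seeing the data, gave 0.64 for Angpt2 and turned Tie1 to -0.12; the cause was not tested. Without normal replicate 1 and glioma replicate 1 together, Angpt2 differed by 3.19 (limma adjusted p = 0.126). Angpt1 has no value where only genes above 0 in all libraries are kept. Within-library differences kept their sign in every setting; leaving out 1 library gave 0.74 to 6.78 for Angpt2 minus Angpt1, 0.01 to 2.15 for Angpt2 minus Tek, -0.81 to -0.10 for Tie1 minus Tek and -1.53 to -0.37 for Ptprb minus Tek. Members whose groups did not overlap numbered 0 to 4 with 1 library left out. They numbered 4 without normal replicate 1, where 14.7% of all genes tested lay wholly above and 20.7% wholly below, and 1 without glioma replicate 2. The share over all genes was not counted with any other library left out.

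Genes past the adjusted threshold numbered 0 except for 15 under a prior without a trend, none of them a member. Genes with an unadjusted p under 0.05 numbered 303 to 1211 with 1 library left out, 2446 without replicate 1 of both groups and 302 with the averaged pair, against 509. Deviations of same-numbered libraries from their group means correlated at 0.19, 0.15 and 0.06 across genes, and not every library correlated best with its own number. Between the groups, replicates 2 and 3 correlated at 0.06 to 0.19. Replicate 1 of either group correlated at -0.19 to -0.08 with replicates 2 and 3 of the other. The date-like numbers pair the replicates in the same way. Deviations within a group sum to 0, so these values are not independent, and their cause was not tested. With the replicate block, 610 genes had an unadjusted p under 0.05, 0 passed the adjusted threshold, and the difference of Angpt2 was 1.39 (limma adjusted p = 0.790). Depth is unknown, and a gene under a library's lowest value cannot be seen there.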
